A study of Penicillium oxalicum with 6 samples.

Results

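Cellulose is broken down by enzymes that work in series. Cellobiohydrolases release cellobiose from the ends of the cellulose chain, endoglucanases cut bonds inside the chain and so open new ends, and β-glucosidases split the resulting cellobiose into glucose. Many of the secreted enzymes carry a cellulose-binding module of family CBM1, a small domain that anchors them to the substrate, and fungi switch their genes on together when cellulose is the carbon source. The genes described here are the 8 cellobiohydrolase and endoglucanase genes, of 9834 genes in all, that the study of the kinase PoxMKK1 in the filamentous fungus *Penicillium oxalicum* listed among its differentially expressed genes (DEGs). They were selected on their lower FPKM in the mutant, in the same libraries as used here, so their differences between strains are given as a description and no p is attached to them.

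The set holds a single cellobiohydrolase gene, *cbh2* (*POX04786*, family GH6, also named Cel6A), and 7 endoglucanase genes. Of these, *Cel5B* (*POX01166*), *Cel5A* (*POX06147*), *Cel5C* (*POX01896*) and *POX04137* are of family GH5, *Cel45A* (*POX05570*) is of family GH45, and *eg2* (*POX07535*, also named Cel12A) and *POX06983* are of family GH12. By the annotation of the study, the GH6, GH5 and GH45 genes encode a CBM1 module, 6 genes in all, and the 2 GH12 genes do not. *Cel5C* is annotated with a further binding module, CBM46. The counts and FPKM values together imply effective transcript lengths from 705 nucleotides for *eg2* and 748 for *POX06983* to 1413 for *cbh2* and 2010 for *Cel5C*, if FPKM was scaled to the summed count of each library.

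Messenger RNA was compared between Δ*PoxMKK1*, in which *PoxMKK1* (*POX07948*) was replaced by a G418 resistance gene, and its parent Δ*PoxKu70*, with 3 libraries of each, labelled replicates F, S and T. PoxMKK1 is the orthologue of Ste7, the middle kinase of the pheromone and filamentation cascade of *Saccharomyces cerevisiae*. Both strains are described as carrying a hygromycin resistance gene in place of the Ku70 homologue (*POX01583*), a change that raises the frequency of gene targeting, and how many transformants stand behind the mutant libraries is not given in the sources used here. For all 6 libraries about 1 g of mycelium was first grown on glucose and then given 2% Avicel, a microcrystalline cellulose, for 24 h (28 °C, 180 rpm). Where a gene has 3 values for a strain, they stand in the order F, S, T. The study calls the replicates biological. As a check of the labels, reads of *PoxMKK1* itself summed to 3 in the mutant and 2001 in its parent, 663 times as many (95% Clopper-Pearson interval 226 to 3216, for counting error alone). *POX01583* was read in both strains, at 55.4 to 62.8 FPKM in Δ*PoxMKK1* and 63.5 to 81.4 FPKM in Δ*PoxKu70*, which goes against a full replacement of this gene, and whether the reads lie outside the replaced stretch was not tested. The total expected count, an estimated number of reads, was between 13687087 and 14042791 per library.

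All 8 genes were lower in Δ*PoxMKK1*, with no overlap between the strains in any of them. The same held for 23.6% of all tested genes, and the choice of the 8 genes fixes their direction. *Cbh2* and *Cel5B* were the most abundant in both strains and together made up 76.4% of the FPKM that was lost from the set. *POX06983*, a gene of low abundance, lost the largest share of its own level, 87.9%, whereas *Cel5C* lost 54.1%. FPKM, the scale used for levels, divides the reads of a gene by its length and by the depth of the library, so that levels of different genes can be compared. In RNA from whole mycelium, fewer hyphae that express a gene and less RNA of it per hypha cannot be told apart.

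The FPKM of *cbh2* was 4499, 4296 and 3462 in Δ*PoxKu70* against 1962, 1118 and 1573 in Δ*PoxMKK1*. It was thus among the 30 most abundant of all genes in every library of Δ*PoxKu70*, at places 28, 27 and 30, and stood at places 61, 142 and 85 in Δ*PoxMKK1*. Its log2 fold change by edgeR was -1.46 (standard error, SE, 0.256), and 38.0% of the mean FPKM remained. Replicate T was the lowest of Δ*PoxKu70* and replicate S the lowest of Δ*PoxMKK1*.

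*Cel5B*, the most abundant endoglucanase gene, had 3116, 2744 and 2114 FPKM in Δ*PoxKu70* against 972, 529 and 616 in Δ*PoxMKK1*. Its log2 fold change was -1.98 (SE 0.287), beside -1.46 for *cbh2*, and its place among all genes went from between 42 and 63 to between 180 and 359. The other GH5 genes differed in level and in size of change. *Cel5C* had 963, 1009 and 741 FPKM in Δ*PoxKu70* against 522, 323 and 402 in Δ*PoxMKK1*, and its log2 fold change of -1.19 (SE 0.227) was the smallest of the set. *Cel5A* was next to it, with 488, 494 and 353 FPKM against 276, 129 and 197 and a log2 fold change of -1.21 (SE 0.290). These genes lay closest to the 2-fold minimum by which the study chose DEGs, and without replicate S of Δ*PoxMKK1*, its lowest library, *Cel5A* stood at -0.98. *POX04137* was the rarest GH5 gene, with 51.1, 89.0 and 52.0 FPKM in Δ*PoxKu70* and 16.1, 17.7 and 18.8 in Δ*PoxMKK1*. Its log2 fold change of -1.93 (SE 0.235) was close to that of *Cel5B*, although its mean FPKM in Δ*PoxKu70* was 64.0 against 2658 for *Cel5B*.

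*Cel45A*, the only GH45 gene among them, had 712, 750.3 and 527 FPKM in Δ*PoxKu70* against 277, 169.7 and 215 in Δ*PoxMKK1*. Its log2 fold change was -1.66 (SE 0.227). Replicate T was again the lowest of Δ*PoxKu70* and S the lowest of Δ*PoxMKK1*. The GH12 genes, which lack the CBM1 module, had the largest changes. *Eg2* had 98.9, 189.7 and 61.3 FPKM against 19.5, 15.9 and 30.5, a log2 fold change of -2.48 (SE 0.452). Its libraries of Δ*PoxKu70* spread the most of the set, with replicate S 3.09 times as high as T, and the log2 fold change was -1.93 without replicate S of Δ*PoxKu70* and -2.81 without replicate T. The lower of these values in size is no larger than the change of *Cel5B*. *POX06983* had 80.5, 82.2 and 74.1 FPKM against 10.2, 8.71 and 9.83, a log2 fold change of -3.10 (SE 0.113), and its libraries lay close together in both strains.

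**Figure D1:**
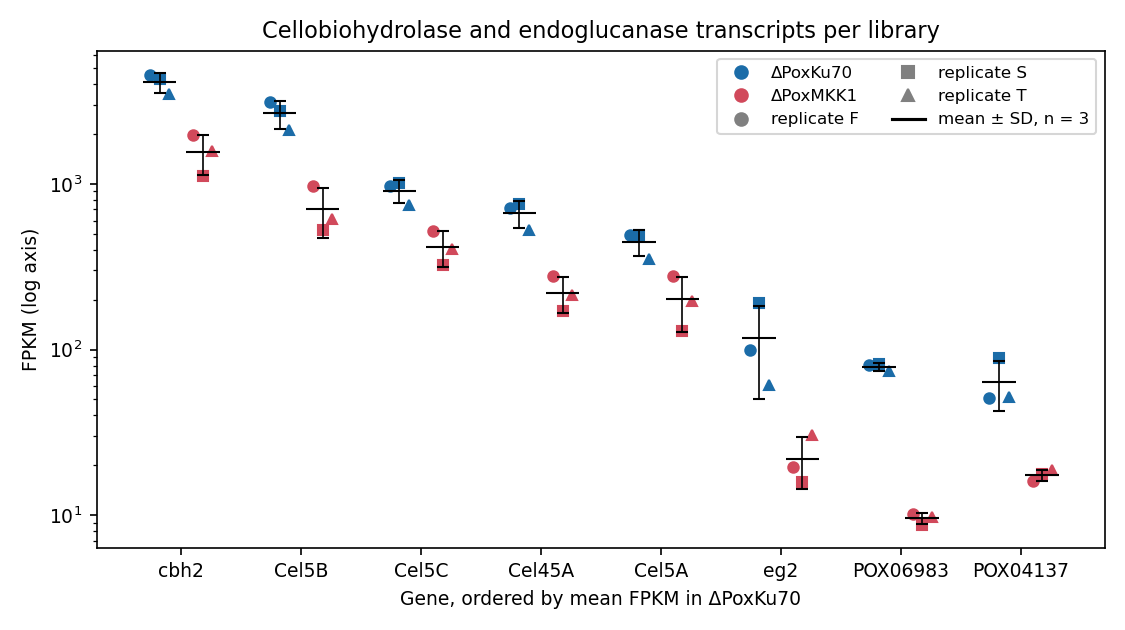
FPKM on a log axis for the 8 genes in each library of ΔPoxKu70 (blue) and ΔPoxMKK1 (red), with the mean and SD of 3 libraries as black bars and the replicate shown by the marker. In every gene the 3 red points lie below the 3 blue points, from 4085 against 1551 FPKM on average for cbh2 to 78.9 against 9.58 for POX06983.

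By the threshold used here, an adjusted p under 0.05 in the quasi-likelihood test of edgeR together with a difference of 2-fold or more, 8.93% of the 8749 tested genes were called lower in Δ*PoxMKK1* and 19.8% were called in either direction. All 8 genes were among those called lower, and all 8 had every library of Δ*PoxMKK1* below every library of Δ*PoxKu70*, as 23.6% of the tested genes did. The choice of the genes fixes these counts, so nothing is read from them. The median log2 fold change of the 8 genes was -1.80, and that of all tested genes was 0.01. In the order of all tested genes by log2 fold change, 0.800% had a lower value than *POX06983*, 1.58% a lower value than *eg2*, 5.35% a lower value than *cbh2* and 7.37% a lower value than *Cel5C*.

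**Figure D2:**
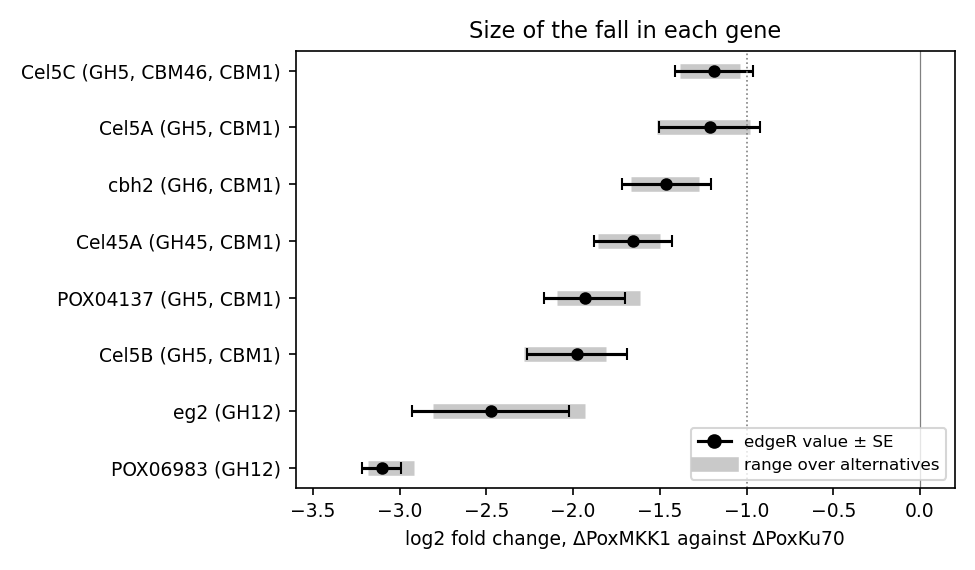
log2 fold change of each gene in ΔPoxMKK1 against ΔPoxKu70 by edgeR, with its standard error (black) and the lowest and highest value over 15 alternative analyses (grey); the dotted line marks a 2-fold fall. The GH12 genes POX06983 (-3.10) and eg2 (-2.48) lie at the bottom and the GH5 genes Cel5A (-1.21) and Cel5C (-1.19) at the top.

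The order of the levels was *cbh2*, *Cel5B*, *Cel5C*, *Cel45A*, *Cel5A* and *eg2* in both strains. *Cbh2* exceeded *Cel5B* in all 3 libraries of each strain, and the lowest library of *cbh2* was above the highest of *Cel5B*, at 3462 against 3116 FPKM in Δ*PoxKu70* and 1118 against 972 in Δ*PoxMKK1*. The ranges of *Cel5C* and *Cel45A* overlapped in Δ*PoxKu70*, and those of *Cel45A* and *Cel5A* overlapped in Δ*PoxMKK1*, though within each library the order of these pairs was the same. The last places were not settled in Δ*PoxKu70*, where the ranges of *eg2*, *POX06983* and *POX04137* overlapped from each to the next. In Δ*PoxMKK1*, *POX06983* had the lowest level of the set, at most 10.2 FPKM against at least 16.1 for *POX04137*, which itself overlapped with *eg2*.

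The summed FPKM of the 8 genes was 10008, 9654 and 7384 in Δ*PoxKu70* against 4056, 2311 and 3061 in Δ*PoxMKK1*, a log2 ratio of the means of -1.52. This was 0.865% ± 0.141 (SD, n = 3) of all FPKM in Δ*PoxKu70* and 0.291% ± 0.0796 (SD, n = 3) in Δ*PoxMKK1*. The summed level was thus 65.1% lower in the mutant. Within the set, *cbh2* made up 45.0, 44.5 and 46.9% of the FPKM in Δ*PoxKu70* and 48.4, 48.4 and 51.4% in Δ*PoxMKK1*, and the share of *Cel5C* was also higher in the mutant, at 13.3% ± 0.580 (SD, n = 3) against 10.04% ± 0.415 (SD, n = 3). So was the share of *Cel5A*, at 6.28% ± 0.633 (SD, n = 3) against 4.92% ± 0.177 (SD, n = 3). *Cel5B* went the other way, from 31.1, 28.4 and 28.6% to 24.0, 22.9 and 20.1%. *POX06983* also fell, from 0.887% ± 0.104 (SD, n = 3) to 0.316% ± 0.0628 (SD, n = 3). The shares of *eg2* and *POX04137* overlapped between the strains. The share of *Cel45A* was 7.34% ± 0.370 (SD, n = 3) in Δ*PoxKu70* and 7.06% ± 0.261 (SD, n = 3) in Δ*PoxMKK1*, a difference within the spread between libraries. The level of *cbh2* relative to the 7 endoglucanase genes together was 0.817, 0.802 and 0.883 in Δ*PoxKu70* and 0.937, 0.937 and 1.06 in Δ*PoxMKK1*.

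**Figure D3:**
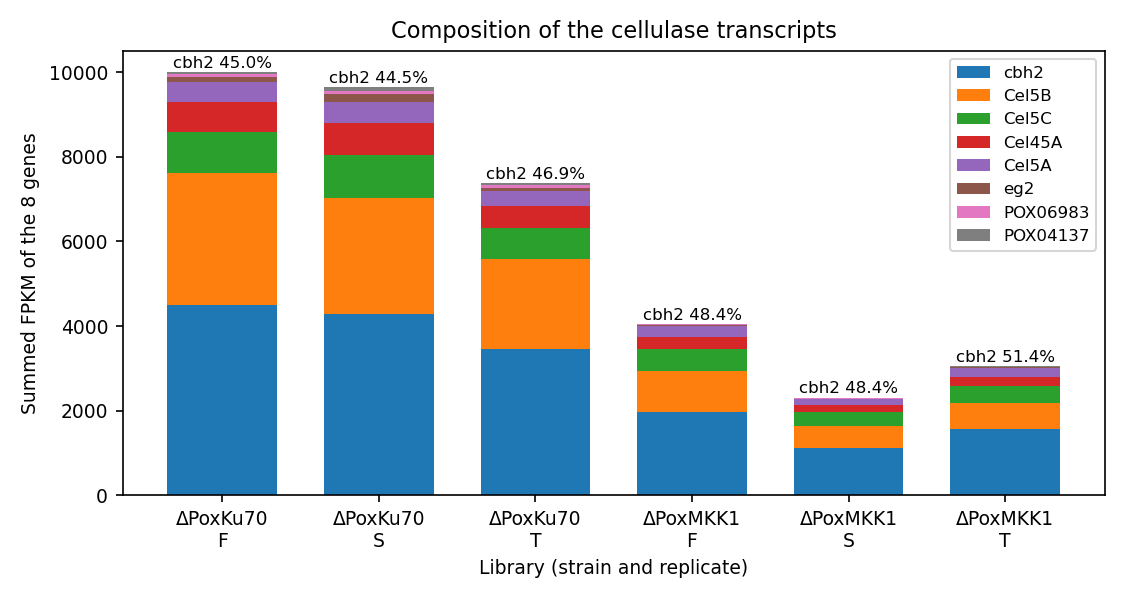
Summed FPKM of the 8 genes in each library, stacked by gene, with the percentage taken by cbh2 above each bar. The bars reach 7384 to 10008 FPKM in ΔPoxKu70 and 2311 to 4056 in ΔPoxMKK1, and cbh2 takes 44.5 to 46.9% of the former and 48.4 to 51.4% of the latter.

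The spread between libraries of a strain divided the set. The study chose its DEGs by a probability score beside the fold minimum, and whether this score drew on the spread was not tested. *Cbh2*, *Cel5B*, *Cel5C*, *Cel45A* and *Cel5A*, the 5 most abundant genes, all had the order F, T, S from highest to lowest in Δ*PoxMKK1*, as 19.5% of the tested genes did, and replicate T lowest in Δ*PoxKu70*, as 33.7% of the tested genes did. On the scale of log2(FPKM + 0.5), replicate F of Δ*PoxMKK1* lay 0.36 to 0.53 above the mean of its strain in these genes, while the median over all tested genes was 0.00. *POX06983* had the same order with smaller deviations, the largest being -0.13 in replicate S of Δ*PoxMKK1*. *Eg2* was highest in replicate T of Δ*PoxMKK1*, at 0.52 above its strain mean, and in replicate S of Δ*PoxKu70*, at 0.85 above. *POX04137* shared the peak in replicate S of Δ*PoxKu70*, at 0.52 above its strain mean, and in Δ*PoxMKK1* its libraries lay between -0.12 and 0.10 of the mean. With 3 libraries per strain these orders were not tested, and the split into abundant and rare genes was made after the values were seen.

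**Figure D4:**
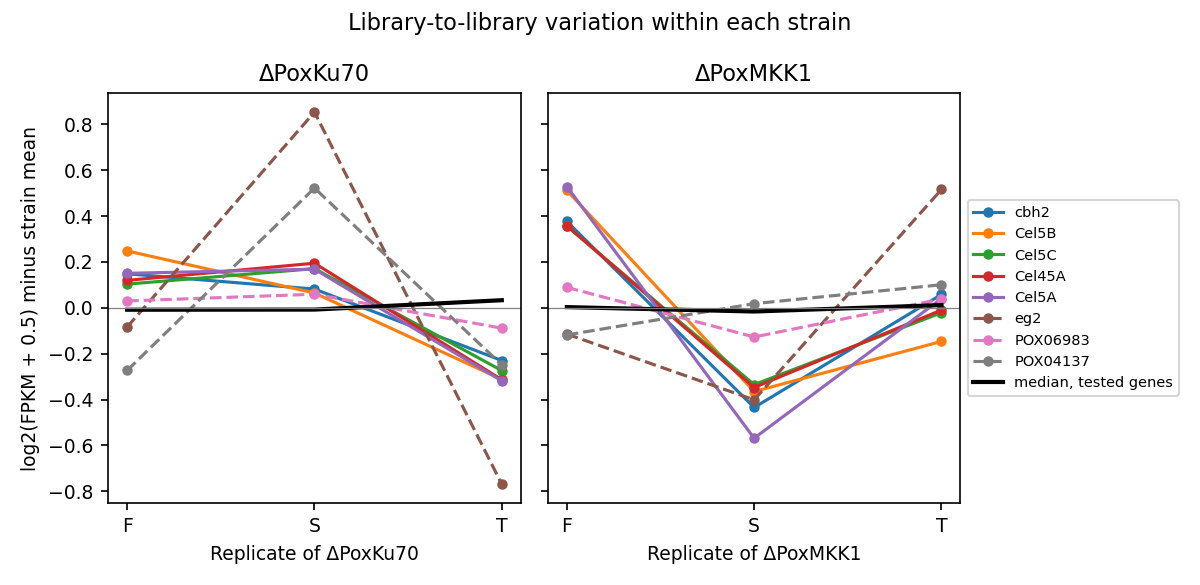
Deviation of log2(FPKM + 0.5) from the mean of the strain in replicates F, S and T, for ΔPoxKu70 (left) and ΔPoxMKK1 (right); coloured lines join the values of a gene only to identify it, dashed for the 3 rarest genes, and the black line is the median of all tested genes. The 5 solid lines run together in both panels, while eg2 peaks in replicate S on the left (0.85) and replicate T on the right (0.52).

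The depth behind these values differed widely between the genes. *Cbh2* had between 66935 and 89245 counts in the libraries of Δ*PoxKu70*, so that counting error alone would give a coefficient of variation of 0.353%, against 13.5% between libraries. *POX06983* had 106, 90 and 101 counts in Δ*PoxMKK1*, where counting error alone would give 10.1% and the libraries varied by 8.10%, so no variation beyond counting was detectable there. For *eg2* in Δ*PoxKu70* the libraries varied by 56.6% against 2.96% from counting.

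Over the 6 libraries, the profiles most alike within the set were those of *cbh2* and *Cel45A*, which differed by a root mean square of 0.11 on the log2 scale after each was centred on its mean, and those of *Cel5A* and *Cel5C*, at 0.13. The GH12 genes *eg2* and *POX06983* differed from each other by 0.60, and the farthest apart were *Cel5C* and *POX06983*, at 0.94. Among the 7017 other genes that averaged 10 FPKM or more, the 5 closest to the mean profile of the set were *POX08970* (0.09), the cellodextrin transporter gene *PoxCdtC* (*POX06051*, 0.09), *POX09801* (0.11), *POX02006* (0.12) and *POX07158* (0.12). The difference between strains makes up most of such a profile. *PoxCdtC* was by far the most abundant of these, with 7243, 8456 and 5578 FPKM in Δ*PoxKu70* against 2390, 1574 and 1783 in Δ*PoxMKK1*. It was lowest in replicate T of Δ*PoxKu70* and replicate S of Δ*PoxMKK1*, as 33.7% and 34.5% of the tested genes were. *PoxCdtC* was picked for its likeness over these same libraries, so nothing is read from that order. *POX08970*, *POX09801* and *POX02006* had mean levels between 6.83 and 8.41 FPKM in Δ*PoxMKK1* and between 22.6 and 32.3 in Δ*PoxKu70*. *POX07158* had 10.5 to 14.3 FPKM in Δ*PoxMKK1* and 29.7 to 45.5 in Δ*PoxKu70*.

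The enzymes that act beside cellobiohydrolases and endoglucanases were followed through 10 genes of the study's DEG list, so their direction is not independent evidence. Taken were all genes which that list annotates with these roles, 6 β-glucosidase genes, 2 genes of lytic polysaccharide monooxygenases of family AA9, which cleave cellulose chains by oxidation, and 2 genes of expansin-like proteins. All 10 were called by the same test, 9 lower and 1 higher, with a median log2 fold change of -1.95. Of all tested genes, 19.8% were called in either direction. The GH3 β-glucosidase gene *Bgl1* had 153, 132 and 113 FPKM in Δ*PoxKu70* against 41.5, 40.7 and 33.9 in Δ*PoxMKK1*, and was thus less abundant than *cbh2* in every library. Of the monooxygenase genes, *AA9A* (*POX08897*) had 216, 223 and 166 FPKM against 36.2, 26.9 and 36.9. *POX02308* had 2062, 1759 and 1323 against 446, 278 and 327, with the order of libraries that *cbh2* and *Cel5B* had in both strains. Of the tested genes, 18.1% had this order in Δ*PoxKu70* and 19.5% in Δ*PoxMKK1*. The higher one was the GH3 β-glucosidase gene *POX07963*, which had 11.9, 10.8 and 13.3 FPKM in Δ*PoxKu70* against 57.5, 44.7 and 44.5 in Δ*PoxMKK1*. *POX00923* was not taken, as the list annotates it as a GH43 β-xylosidase gene although the study elsewhere counts it among β-glucosidases. It had 2.20, 0.80 and 4.60 FPKM in Δ*PoxKu70* against 57.6, 51.2 and 76.5 in Δ*PoxMKK1*, and was higher in every library of the mutant.

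Of 13 regulator, transporter and sensor genes that the study named from the RNA-seq or measured by RT-qPCR, 5 were called lower and 3 higher in Δ*PoxMKK1*. This was 61.5% of the 13, beside 19.8% of all tested genes called in either direction. Most of the 13 had been named as DEGs of these libraries, so their count is not independent either. *PoxClrB* (*POX01960*), an activator of cellulase genes, had 101, 91.8 and 71.5 FPKM in Δ*PoxKu70* against 40.6, 31.7 and 32.3 in Δ*PoxMKK1*, which is -1.40 on the log2 scale (SE 0.173, edgeR adjusted p = 7.86e-04). Its order of libraries in Δ*PoxKu70* was that of *cbh2* and *Cel5B*. *PoxCxrB* (*POX04420*), a zinc finger activator of cellulase and xylanase genes, had 146, 265 and 225 FPKM against 29.5, 61.4 and 78.4, which is -1.97 on the log2 scale (SE 0.375, edgeR adjusted p = 0.00522). It was lowest in replicate F of both strains, where the 5 abundant cellulase genes were highest or next to highest. The other genes called lower were *POX01118*, *PoxCdtC* and the second cellodextrin transporter gene *PoxCdtD* (*POX05915*). Those called higher were *PoxRfxA*, *POX09124* and the glucose sensor gene *PoxRCO-3* (*POX07576*), and *PoxRfxA* stood at 0.97 and was not called without replicate F of Δ*PoxKu70*. *PoxRCO-3* had 3.58, 2.92 and 26.3 FPKM in Δ*PoxKu70* against 106, 194 and 221 in Δ*PoxMKK1*, so that every library of the mutant was above every library of its parent.

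The other 5 genes were not called. *PoxClrC* (*POX00972*) and *PoxAmyR* (*POX03890*) were chosen by the study for RT-qPCR and not named as DEGs, whereas *PoxPacC* (*POX02768*), *POX05276* and *POX09469* were named as DEGs. *PoxAmyR*, the regulator of amylase genes, had 29.0, 24.0 and 22.5 FPKM in Δ*PoxKu70* against 23.7, 24.2 and 25.1 in Δ*PoxMKK1*, which is -0.11 on the log2 scale (edgeR adjusted p = 0.475). *PoxClrC* had 76.3, 97.7 and 92.4 FPKM against 48.5, 41.9 and 95.3, a log2 fold change of -0.58 (adjusted p = 0.15). Replicate T of Δ*PoxMKK1* overlapped with the libraries of Δ*PoxKu70*, and without it the log2 fold change of *PoxClrC* was -1.03 and it was called (adjusted p = 0.00351). *PoxPacC*, the regulator of the response to ambient pH, stood at 0.95, just under the fold minimum, and was called at 1.06 without replicate F of Δ*PoxMKK1* and at 1.11 without replicate S of Δ*PoxKu70*. It was also called at 1.01 by limma with pseudocounts of 0.5 and 0.1, and at 1.01 with library sizes without TMM. *POX05276* stood at 0.35 on the log2 scale (adjusted p = 0.0991). *POX09469* had 102, 23.7 and 179 FPKM in Δ*PoxKu70* against 257, 209 and 205 in Δ*PoxMKK1*, which is 1.08 on the log2 scale (adjusted p = 0.177), and replicate S of Δ*PoxKu70* lay far below the other libraries. The actin gene served as reference in RT-qPCR, and the sources give it as *POX09248* in one place and *POX09428* in another. Neither was called, at log2 fold changes of -0.07 (adjusted p = 0.615) and -0.15 (adjusted p = 0.427).

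The regulators of conidiation moved in the opposite direction. *PoxBrlA* had 29.4, 5.38 and 42.2 FPKM in Δ*PoxKu70* against 460.5, 394 and 379 in Δ*PoxMKK1*, *PoxAbaA* had 3.32 to 4.40 FPKM against 87.8 to 105, and *PoxFlbD* had 117 to 211 against 415 to 509.7, so that the strains were apart in all 3 genes. All 3 were called higher, as 947 of the 8749 tested genes were. The study had named these genes among the DEGs of the same libraries, so nothing is read from their separation. Their summed level was 127 to 256 FPKM in Δ*PoxKu70* and 915 to 996 in Δ*PoxMKK1*, and none was at 0. In Δ*PoxKu70*, *PoxBrlA* was lowest in replicate S, where 6 of the 8 cellulase genes were highest, as 26.6% of the tested genes were. In Δ*PoxMKK1*, *PoxBrlA* was highest in replicate F, where 6 of the 8 were also highest, as 38.3% of the tested genes were. The part of conidiation in the levels of the cellulase genes was not tested.

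Genes with neighbouring numbers were taken for each cellulase gene from its identifier alone, so their own values played no part in the choice. They were tested in the same 6 libraries in which the 8 genes were chosen, so the test is not fully independent of that choice. Whether the numbering follows the genome is not shown by the files, and 0 of the identifiers matched a RefSeq table of the same isolate. Of the 32 genes within 2 numbers of a cellulase gene, 29 were tested and 5 were called, 2 lower and 3 higher. This was 17.2% of those tested, beside 19.8% of all tested genes, and their median log2 fold change was 0.06. The largest rise was in *POX05569*, next to *Cel45A*, from 5.28 ± 0.173 to 221 ± 63.1 FPKM (SD, n = 3), which is 5.32 on the log2 scale (SE 0.252, edgeR adjusted p = 1.75e-05), whereas *POX05571* on its other side changed by -0.78 and was not called. *POX01897*, next to *Cel5C*, rose from 23.6 ± 9.82 to 96.9 ± 8.66 FPKM (SD, n = 3).

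The larger of the falls was in *POX07534*, next to *eg2*, from 1588 ± 202 to 406 ± 6.55 FPKM (SD, n = 3), which is -2.03 on the log2 scale (SE 0.156, edgeR adjusted p = 1.17e-04). *POX06146*, next to *Cel5A*, was called lower at -1.05 but stood at -0.93 once replicate S of Δ*PoxMKK1* was left out and at -0.91 without replicate F of Δ*PoxKu70*. It also lost its call by limma, at -0.98 to -0.97, and with library sizes without TMM, at -0.98. *POX04135*, with the number 2 below that of *POX04137*, was called higher at 1.16 and lost its call with Δ*PoxMKK1* replicate S (1.10), Δ*PoxMKK1* replicate T (0.98) or Δ*PoxKu70* replicate F (0.91) left out. Without replicate S of Δ*PoxMKK1*, 3 of these neighbouring genes were called. Others gained a call when a library was left out, among them *POX06145*, also near *Cel5A*, which stood at -0.99 and reached -1.18 without replicate T of Δ*PoxKu70*, *POX06985* at 1.92 without that library, and *POX07536*, next to *eg2*, at 1.01 without replicate S of Δ*PoxKu70*. *POX06145* was also called by DESeq2, at -1.02. *POX07533*, near *eg2*, was too low in counts to be tested in the main fit, at a mean of 2.19 FPKM in Δ*PoxKu70* and 0.617 in Δ*PoxMKK1*. *POX07533* was called with replicate F of Δ*PoxKu70* left out, at -2.18, and in no other analysis that left out a library. It was also called by limma, at -1.18 and -1.55 with pseudocounts of 0.5 and 0.1, and with no filter on low counts, at -1.85. With no such filter *POX06984*, next to *POX06983* and likewise untested in the main fit, was called higher at 2.48. Its mean was 0.133 FPKM in Δ*PoxKu70* and 0.86 in Δ*PoxMKK1*. None of the 4 genes around *cbh2* and none of the 4 around *Cel5B* was called, their log2 fold changes being between -0.42 and 0.79.

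**Figure D5:**
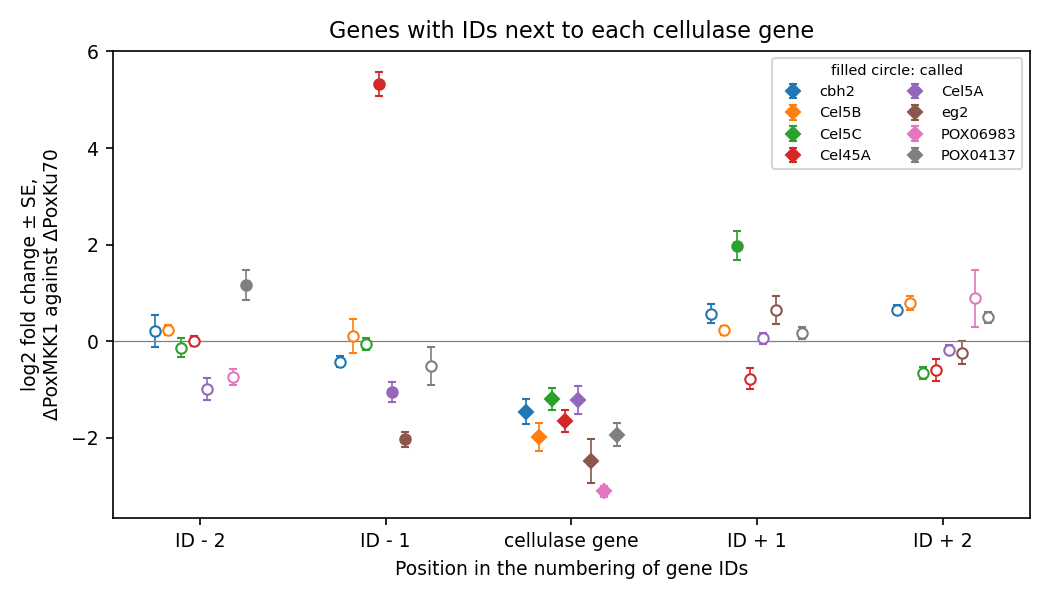
log2 fold change with its standard error for the tested genes whose identifier numbers lie 1 or 2 from that of each cellulase gene (circles, filled where called) and for the cellulase genes themselves (diamonds), coloured by cellulase gene. The diamonds lie between -3.10 and -1.19, while the circles lie on both sides of 0, from -2.03 for POX07534 to 5.32 for POX05569.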

How the data were processed

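RNA of the 2 strains, with 3 libraries each (6 in all), was sequenced on a BGISEQ-500 after oligo(dT) enrichment and aligned to the HP7-1 genome. The authors deposited for each library an expected count and an FPKM value per gene. The submitters' processing notes name Bowtie2 2.1.0, RSEM 1.2.12, BWA 0.7.10-r789 and DESeq2 without saying which step each served. Expected counts were not whole for 71 to 87 of 9834 genes per library and were rounded, and none of these was a cellulase gene.

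Strains were compared with edgeR 4.0.16 (filterByExpr, TMM, quasi-likelihood test, Benjamini-Hochberg adjustment over 8749 tested genes) on R 4.3.3. Calls needed an adjusted p under 0.05 together with a log2 fold change of 1 or more in size. The script was tested on simulated data. Levels, sums and profiles used the deposited FPKM, with a pseudocount of 0.5 before logarithms. The labels do not say that libraries came from separate cultures, so p-values measure the spread between these libraries. No 2 libraries of a strain agreed within counting noise. The cellulase genes and the gene lists were chosen with earlier results of these data known.

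Genes named are the 8 cellulase genes, the deleted genes, listed partner, regulator, transporter, conidiation and reference genes, the 5 genes with the most similar profile, and neighbours by number. The neighbours and reference genes named singly were picked after their values were seen. Alternatives were DESeq2 1.42.0 and its size factors, limma 3.58.1 on log2 FPKM, no filter, other thresholds, a replicate block, each library left out and, chosen after seeing the data, library sizes without TMM. Unused columns of per-sample values numbered 0.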

Additional observations from a re-analysis of the deposited data

How the results depend on the processing

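Of 120 alternative log2 fold changes of the 8 cellulase genes, 118 moved by less than the spread between replicates, and all lay between -3.18 and -0.98. The others were of *POX06983*, at -2.98 and -2.92 by limma with pseudocounts of 0.5 and 1 against -3.10. Leaving out 1 of 3 libraries can hardly move a strain mean by more than that spread. The count of 118 is therefore no measure of robustness. All 8 genes stayed called, except *Cel5A* without Δ*PoxMKK1* replicate S and at an adjusted p below 0.01, where 7 were called. In these 2 settings 1573 of 8812 and 1500 of 8749 tested genes were called. The 8 genes were chosen as DEGs of these libraries, so nothing is read from their staying called. The log2 ratio of the summed FPKM was -1.75 to -1.34 with a library left out and -1.63 without *cbh2*. The share of *cbh2* in Δ*PoxKu70* was 47.3% in TMM-normalised CPM, which has no length term, against 45.4% in FPKM. With a library left out, 3 to 7 genes with neighbouring numbers were called, the lowest without Δ*PoxMKK1* replicate S. With no fold minimum, 14 of these were called and 4044 of all tested genes, against 5 and 1728.

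The fit with a replicate block called 1739 genes, all 8 cellulase genes among them. Libraries of the same letter deviated together with correlations across genes of 0.35 (F), 0.03 (S) and 0.14 (T). For different letters the correlations lay between -0.40 and 0.17, the highest being replicate T of Δ*PoxMKK1* with S of Δ*PoxKu70*. These values do not settle whether the letters pair the libraries, and the main fit used no pairing.

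Depth limits the precision of *POX06983* in Δ*PoxMKK1*, at 90 to 106 counts per library, though its SE of 0.113 was the smallest of the set. That of *eg2* and *POX04137* is limited by the spread of their 3 libraries of Δ*PoxKu70*. *POX04137* varied there by 33.8% against 2.79% from counting. With library sizes in place of TMM, chosen after seeing the data, 1008 genes were called higher and 718 lower, against 947 and 781.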
